A study of Mus musculus and Homo sapiens with 20 samples.

Results

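The Hox clusters were examined as open chromatin in mouse hepatocytes, in 12 ATAC-seq libraries of AhR_flox cells. A region was counted as a Hox region when its nearest protein-coding gene body, within 50 kb, was a gene of the HoxA, HoxB, HoxC or HoxD cluster. Of 642948 regions built by merging the overlapping peaks of the 12 libraries, 467 met this rule, 116 at HoxA, 134 at HoxB, 126 at HoxC and 91 at HoxD.

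ATAC-seq marks accessible DNA by the insertion of adapters with the transposase Tn5, and the study used it to ask how vitamin B2 (riboflavin) deficiency and the aryl hydrocarbon receptor, AhR, bear on liver chromatin. The 4 groups were AhR_flox hepatocytes on the vitamin B2-deficient condition with Ad_Cre (B2_minus_Ad_Cre), the same with Ad_Cont (B2_minus_Ad_Cont), the control condition with Ad_Cre (Cont_Ad_Cre) and the control condition with Ad_Cont (Cont_Ad_Cont), with 3 libraries each. All 12 libraries carried the AhR_flox allele and the label 4_weeks, which names no age and does not say what lasted that long. The labels call the cells hepatocytes and the protocol starts from cultured cells. They do not say whether the libraries of a group came from separate animals or cultures. Each p-value here is set by library-to-library spread, estimated with sharing over all tested regions, and that spread may be technical.

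Hox genes encode homeodomain transcription factors that tell embryonic cells their position along the head-to-tail axis. Mammals hold them in 4 clusters on separate chromosomes, numbered so that the lowest paralog groups act in the hindbrain and neck and the highest in the lumbar and tail region, limbs and genital tract. In cells outside their domain the clusters are typically kept silent by Polycomb complexes, which mark histone H3 with trimethylated lysine, and their CpG-rich promoters are a textbook example of Polycomb targets. Hox genes are not among the genes that define the adult hepatocyte.

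The promoter sequences below were chosen to show what the open and the closed Hox promoters look like. They are the RefSeq windows (GRCm38.p6, which is mm10) from 250 bases before to 50 bases after a transcription start, written 5′ to 3′ on the gene's own strand, with every CG in capitals. The table held 24 windows of 22 of the 39 Hox genes. Hoxd10 and Hoxa13 are the open window with the highest count and the window with the most CpG. Hoxd11 and Hoxa10 each have 2 windows of which 1 was open, and Hoxd4 is a CpG-poor window in which no library listed a peak.
Hoxd10, plus strand of chr2:74691641-74691940, open in all 12 libraries: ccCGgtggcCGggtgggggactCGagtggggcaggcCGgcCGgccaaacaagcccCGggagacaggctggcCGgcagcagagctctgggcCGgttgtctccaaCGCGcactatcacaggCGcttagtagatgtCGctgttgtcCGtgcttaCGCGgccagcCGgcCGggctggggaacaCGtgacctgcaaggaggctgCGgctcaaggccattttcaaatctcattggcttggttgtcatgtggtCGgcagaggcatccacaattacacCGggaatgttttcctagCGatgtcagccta
Hoxa13, minus strand of chr6:52260831-52261130, open in all 12 libraries: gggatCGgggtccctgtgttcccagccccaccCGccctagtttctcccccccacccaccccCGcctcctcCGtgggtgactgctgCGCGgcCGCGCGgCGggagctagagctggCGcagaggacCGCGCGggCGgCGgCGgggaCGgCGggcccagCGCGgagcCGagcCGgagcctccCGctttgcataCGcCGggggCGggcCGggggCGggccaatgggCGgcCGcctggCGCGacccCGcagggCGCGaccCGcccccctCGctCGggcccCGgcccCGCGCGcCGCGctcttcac
Hoxd11, plus strand of chr2:74682073-74682372, open in all 12 libraries: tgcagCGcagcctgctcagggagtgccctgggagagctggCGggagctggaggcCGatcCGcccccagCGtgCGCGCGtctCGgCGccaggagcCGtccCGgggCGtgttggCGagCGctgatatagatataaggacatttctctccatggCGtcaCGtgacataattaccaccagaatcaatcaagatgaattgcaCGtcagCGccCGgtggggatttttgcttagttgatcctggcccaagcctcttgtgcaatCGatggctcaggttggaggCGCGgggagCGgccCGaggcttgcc
Hoxd11, plus strand of chr2:74679308-74679607, no peak in any library: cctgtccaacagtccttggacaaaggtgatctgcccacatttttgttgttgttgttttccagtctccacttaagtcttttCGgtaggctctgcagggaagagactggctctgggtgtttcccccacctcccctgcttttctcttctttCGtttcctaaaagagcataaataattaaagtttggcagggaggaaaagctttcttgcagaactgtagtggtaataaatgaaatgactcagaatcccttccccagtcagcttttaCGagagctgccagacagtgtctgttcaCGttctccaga
Hoxa10, minus strand of chr6:52240805-52241104, open in all 12 libraries: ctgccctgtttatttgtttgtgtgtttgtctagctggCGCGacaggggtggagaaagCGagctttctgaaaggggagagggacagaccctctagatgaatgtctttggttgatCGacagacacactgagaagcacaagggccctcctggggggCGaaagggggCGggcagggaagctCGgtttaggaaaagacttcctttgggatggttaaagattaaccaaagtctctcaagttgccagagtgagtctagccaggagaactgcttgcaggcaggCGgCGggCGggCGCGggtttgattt
Hoxa10, minus strand of chr6:52234890-52235189, no peak in any library: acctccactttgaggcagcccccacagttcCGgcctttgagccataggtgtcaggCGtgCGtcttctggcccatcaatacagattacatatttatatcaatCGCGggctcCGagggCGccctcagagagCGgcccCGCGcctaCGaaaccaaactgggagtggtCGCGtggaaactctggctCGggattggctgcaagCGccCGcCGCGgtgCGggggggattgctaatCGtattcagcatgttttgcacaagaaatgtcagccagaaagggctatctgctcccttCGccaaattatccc
Hoxd4, plus strand of chr2:74721728-74722027, no peak in any library: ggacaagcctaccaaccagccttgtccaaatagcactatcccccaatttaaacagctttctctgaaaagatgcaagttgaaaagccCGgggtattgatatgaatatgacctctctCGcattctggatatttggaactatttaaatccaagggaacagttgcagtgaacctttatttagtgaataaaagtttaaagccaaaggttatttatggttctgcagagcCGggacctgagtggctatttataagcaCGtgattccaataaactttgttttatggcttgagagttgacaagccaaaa

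The values compared are tags per peak as the authors listed them. A peak is a stretch of about 200 bp, and the lowest listed count was 6 to 8 tags depending on the library, so a site below it is missing from the list and is not a measured 0. The 12 libraries listed 200698 to 281141 peaks holding 3897632 to 5557678 tags. A region took the highest peak count of each library, and scaled tags are that count divided by the library's relative size from TMM, edgeR's trimmed-mean scaling. "Open" below means listed in all 12 libraries. A bulk library cannot tell a site open in few cells from a site less open in each cell. All 15 hepatocyte marker genes had an open region, and the median over these genes of their highest region was 63.3 scaled tags. Markers of other liver cells had open regions as well, at 11 of 12 stellate cell genes, 10 of 10 endothelial genes, 10 of 10 cholangiocyte genes and 6 of 10 Kupffer cell genes. An open region near a gene was common, and 22 of 24 other homeobox genes chosen for low use in liver had one. Of the regions at stellate, endothelial, cholangiocyte and Kupffer genes, 11.9%, 13.8%, 19.2% and 8.68% were open, against 22.3% at hepatocyte markers and 15.8% of all regions. Among the defining Kupffer genes, Adgre1, Clec4f, Cd5l and Timd4 had no open region. The labels do not say which part of Ahr is floxed, and none of the 9 regions tested at Ahr passed the test for Ad_Cre against Ad_Cont in either condition or averaged, with averaged log2 fold changes of -0.30 to 0.21. For the averaged contrast 3 of the 9 had an unadjusted p under 0.05, as did 9.87% of all tested regions. Accessibility at Ahr was not used as a check of the Ad_Cre label.

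All 4 Hox clusters held open regions, but a smaller share of their regions was open than over the genome, and the open ones were mostly weak. Of the 467 Hox regions, 45 were open (9.64%), against 15.8% of all 642948 regions and 16.4% of the regions within 50 kb of a gene. Another 236 Hox regions (50.5%) were listed in 1 library only, against 49.4% of all regions, and 186 in 2 to 11 libraries. The open Hox regions had a median of 16.1 scaled tags and a range of 9.32 to 37.2, against a median of 23.3 over all 101575 open regions. Of the 45, 7 lay above that all-region median, 21 lay below the all-region 25th percentile of 15.1 scaled tags, and none reached the 75th percentile of 40.7. The share and the level describe these lists and carry no test.

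HoxA and HoxD held open regions more densely than HoxC and HoxB. HoxA had 15 open regions of 116 (12.9%), HoxD 10 of 91 (11%), HoxC 12 of 126 (9.52%) and HoxB 8 of 134 (5.97%). Per 10 kb between the outer ends of the cluster's first and last gene, this was 1.33 open regions in HoxA, 1.03 in HoxD, 0.78 in HoxC and 0.46 in HoxB. The same density over the genome was not computed, so these values compare the clusters only with one another. HoxB is also the longest of the 4, at 173.9 kb, since Hoxb13 stands apart from the rest of the cluster. Almost all open regions lay between the first and the last gene. The exceptions were 1 region beyond Hoxa13 and 3 beyond Hoxc4.

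**Figure D1:**
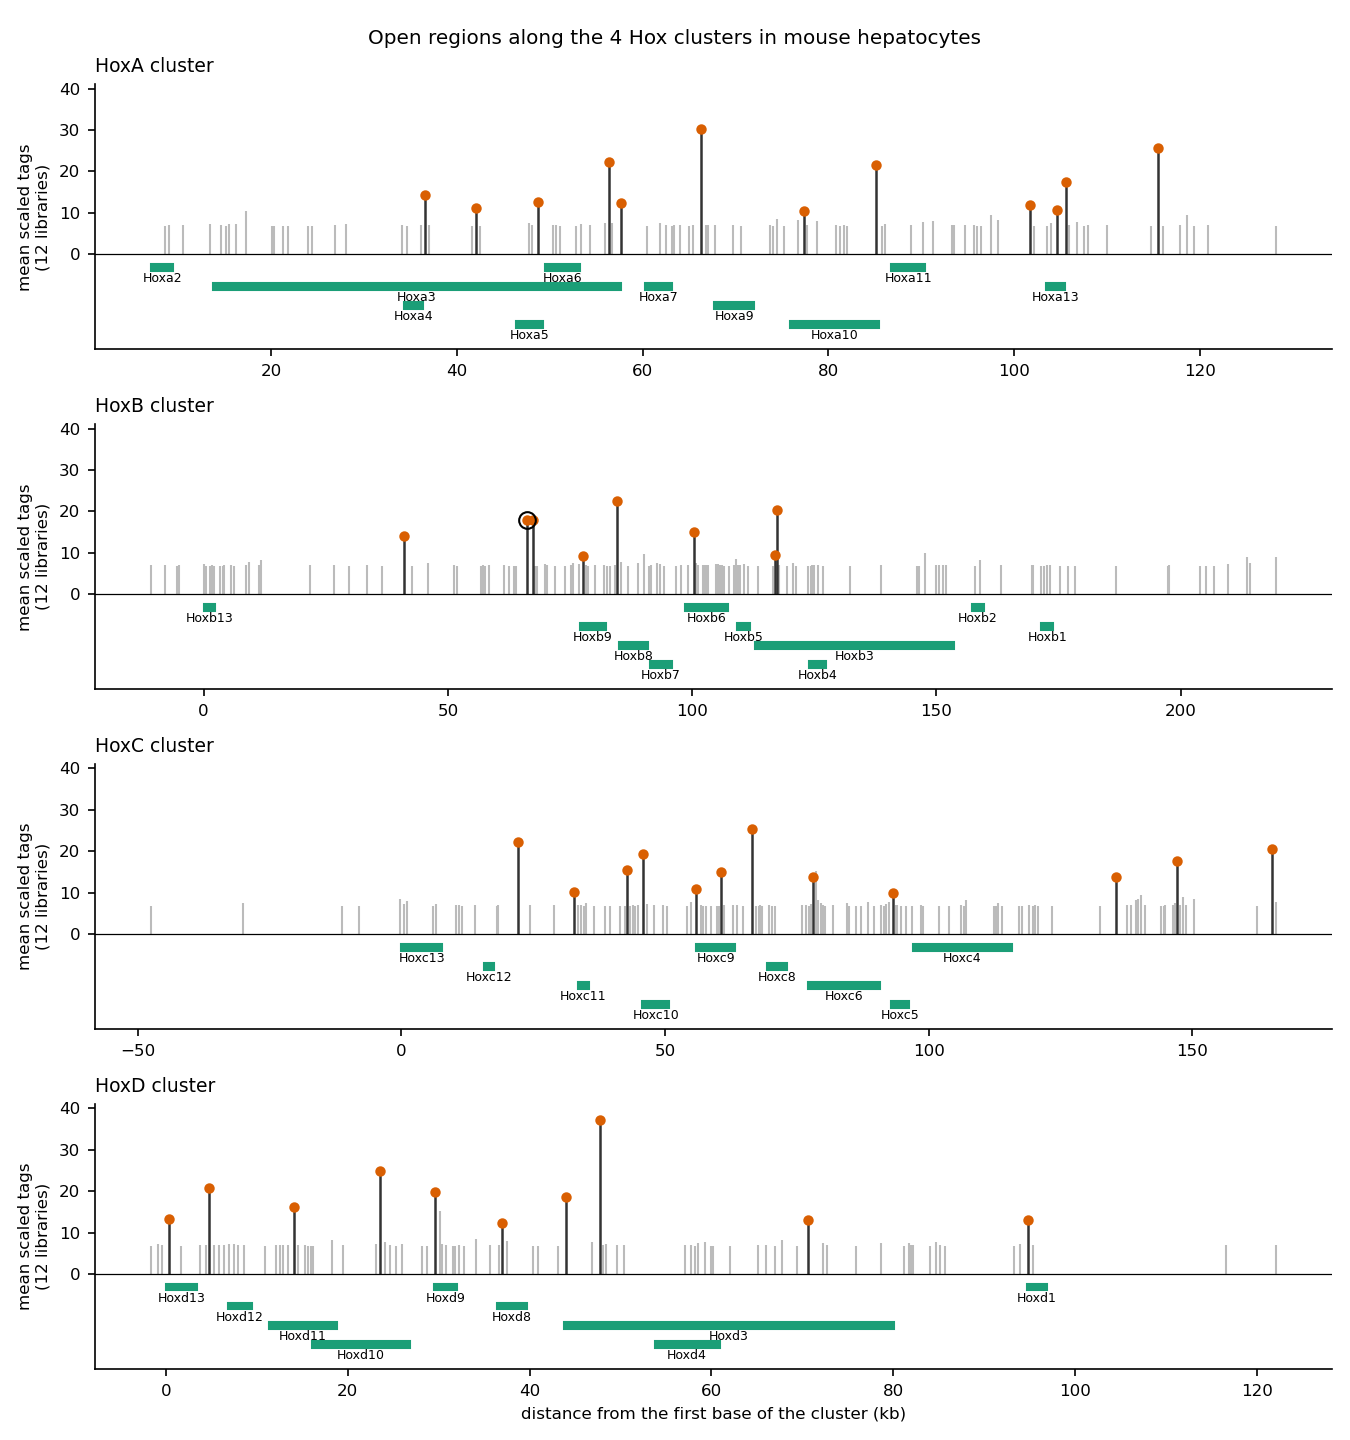
Position of 448 of the 467 Hox regions in the 4 clusters (x axis, kb from the first base of the cluster) against mean scaled tags over the 12 libraries (y axis), with a library that lists no peak taken at its lowest listed count. Black stems with orange points are the 42 regions shown that were listed in all 12 libraries, grey stems are the others, green boxes are the gene bodies, and the circle marks the Hoxb9 region that passed the test; the highest stem is the Hoxd3 region at 37.2 scaled tags.

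Every one of the 39 Hox genes was the nearest gene of at least 1 region, and 25 of them had an open one. The 14 genes without an open region were Hoxa2, Hoxa4, Hoxa6, Hoxa7 and Hoxa11 in HoxA, Hoxb1, Hoxb2, Hoxb4, Hoxb5, Hoxb7 and Hoxb13 in HoxB, Hoxc13 in HoxC, and Hoxd4 and Hoxd12 in HoxD. The highest region of each of these 14 averaged between 6.94 scaled tags at Hoxa4 and 8.99 at Hoxb1, close to the lowest counts the lists hold. A library without a peak was taken at its lowest listed count, which by itself holds such averages low. The most libraries listing a region were 11 at Hoxb1, 10 at Hoxb5, 9 at Hoxb13 and 8 at Hoxa11, Hoxb2, Hoxc13 and Hoxd4. At the rest they ranged from 1 at Hoxa4 to 7 at Hoxb7. By position along the axis, open regions made up 13 of 120 at the anterior paralog groups 1 to 3 (10.8%), 10 of 143 at groups 4 to 8 (6.99%) and 22 of 204 at the posterior groups 9 to 13 (10.8%). By place, 19 of 158 regions within 1 kb of a gene's end were open (12%), 13 of 146 inside genes (8.9%) and 13 of 163 outside them (7.98%).

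In HoxD the strongest region of all 4 clusters lay inside Hoxd3, an anterior gene that patterns the neck vertebrae, at chr2:74715790-74716121. The region also lies in Hoxd3os1, a noncoding RNA gene annotated over the Hoxd3 locus. Its scaled tags were 38.6, 42.1 and 36.3 in B2_minus_Ad_Cre, 41.2, 38.4 and 38.9 in B2_minus_Ad_Cont, 34.2, 38.8 and 44.7 in Cont_Ad_Cre, and 29.8, 32.9 and 30.2 in Cont_Ad_Cont. The Cont_Ad_Cont libraries were the lowest, with no overlap with any other group, and the other 3 groups overlapped one another. The differences did not pass the test: B2_minus_Ad_Cont over Cont_Ad_Cont gave a log2 fold change of 0.35 (SE 0.153, edgeR adjusted p = 0.283) and Cont_Ad_Cre over Cont_Ad_Cont 0.35 (SE 0.152, edgeR adjusted p = 0.547).

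The next regions of HoxD stood at its posterior genes, which pattern the lower trunk, limbs and digits. The region over the Hoxd10 promoter shown above, chr2:74691624-74691931, had 32.3, 27.8 and 19.9 scaled tags in B2_minus_Ad_Cre, 15.2, 27.7 and 27.4 in B2_minus_Ad_Cont, 21.0, 25.9 and 26.3 in Cont_Ad_Cre, and 27.6, 24.9 and 21.6 in Cont_Ad_Cont. All 4 groups overlapped, and the averaged log2 fold change of B2_minus over Cont was 0.00014 (edgeR adjusted p = 0.9997). The region between Hoxd13, the gene of the digits and genital tract, and Hoxd12, 1093 bp from Hoxd13 at chr2:74672696-74673282, had 16.7, 21.1 and 14.5 scaled tags in B2_minus_Ad_Cre, 17.0, 23.5 and 16.8 in B2_minus_Ad_Cont, 34.2, 19.9 and 25.4 in Cont_Ad_Cre, and 16.6, 22.9 and 19.4 in Cont_Ad_Cont. One Cont_Ad_Cre library stood highest, and B2_minus_Ad_Cre overlapped Cont_Ad_Cre by a single library on each side (log2 fold change -0.59, SE 0.212, edgeR adjusted p = 0.160). Hoxd11, Hoxd9, Hoxd8 and Hoxd1 had 1 open region each, from 12.3 scaled tags at Hoxd8 to 19.8 at Hoxd9. A second Hoxd9 region, at chr2:74698223-74698476, averaged 15.3 but was listed in 9 libraries, so it was not tested.

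In HoxA a region between Hoxa7 and Hoxa9, 2708 bp from Hoxa7 and 1108 bp from Hoxa9, a gene also known from blood stem cells, stood at chr6:52221281-52221989. It had 33.4, 32.6 and 31.7 scaled tags in B2_minus_Ad_Cre, 34.9, 26.7 and 27.4 in B2_minus_Ad_Cont, 26.5, 31.8 and 26.3 in Cont_Ad_Cre, and 36.5, 34.8 and 19.4 in Cont_Ad_Cont. The 3 Cont_Ad_Cont libraries spanned the values of all other groups. At the posterior end, beyond Hoxa13 by 9655 bp at chr6:52270535-52271224, values were 26.1, 23.0 and 29.0 in B2_minus_Ad_Cre, 23.3, 27.7 and 22.1 in B2_minus_Ad_Cont, 26.5, 22.9 and 30.7 in Cont_Ad_Cre, and 28.7, 23.9 and 24.8 in Cont_Ad_Cont, again with all groups overlapping. Hottip, the noncoding RNA gene beside Hoxa13, had no region listed in more than 3 libraries.

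In HoxC the strongest region lay between Hoxc9 and Hoxc8, a thoracic patterning gene, at chr15:102987442-102987738. It had 26.1, 26.8 and 29.0 scaled tags in B2_minus_Ad_Cre, 15.2, 24.5 and 26.3 in B2_minus_Ad_Cont, 29.8, 25.9 and 26.3 in Cont_Ad_Cre, and 23.2, 27.9 and 22.7 in Cont_Ad_Cont. One B2_minus_Ad_Cont library was low and the groups otherwise overlapped. Between Hoxc12 and Hoxc11, at chr15:102942806-102943574, values were 19.8, 28.7 and 20.9 in B2_minus_Ad_Cre, 26.0, 17.1 and 14.7 in B2_minus_Ad_Cont, 27.6, 20.9 and 21.9 in Cont_Ad_Cre, and 22.1, 22.9 and 23.8 in Cont_Ad_Cont, with all groups overlapping. The Hotair gene, a noncoding RNA gene in the same interval, had no region of its own listed in more than 2 libraries. The third region lay 48981 bp beyond Hoxc4, almost at the limit of the distance rule, at chr15:103085837-103086567, with 21.9, 24.9 and 14.5 in B2_minus_Ad_Cre, 22.4, 21.3 and 16.8 in B2_minus_Ad_Cont, 21.0, 21.9 and 15.8 in Cont_Ad_Cre, and 16.6, 23.9 and 24.8 in Cont_Ad_Cont.

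In HoxB the strongest region lay 300 bp from Hoxb8, a gene of the thoracic spinal cord and of blood progenitors, at chr11:96278846-96279101. It had 18.8, 18.2 and 23.6 scaled tags in B2_minus_Ad_Cre, 25.1, 28.8 and 22.1 in B2_minus_Ad_Cont, 22.1, 27.8 and 27.2 in Cont_Ad_Cre, and 17.7, 18.9 and 18.4 in Cont_Ad_Cont. B2_minus_Ad_Cont and Cont_Ad_Cre both lay above Cont_Ad_Cont without overlap, while B2_minus_Ad_Cre overlapped all other groups. The interaction, which is the B2_minus effect with Ad_Cre minus that with Ad_Cont, did not pass the test here or at any other region. A region inside Hoxb3 at chr11:96311587-96311856 had 26.1, 23.0 and 16.3 in B2_minus_Ad_Cre, 20.6, 14.9 and 22.1 in B2_minus_Ad_Cont, 13.2, 17.9 and 23.7 in Cont_Ad_Cre, and 19.9, 19.9 and 24.8 in Cont_Ad_Cont, with all groups overlapping.

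None of the miRNA genes named here overlapped an open region. Each is shorter than a peak, and no share over other genes was computed, so this does not show closed chromatin. Mir196b, between Hoxa9 and Hoxa10, had a region listed in 6 libraries, Mir10b within the Hoxd4 gene had a region listed in 3 libraries, and Mir615 inside Hoxc5 had none listed in more than 2. Mir196a-1, Mir196a-2 and Mir10a had none. Among noncoding RNA genes, open regions overlapped Hoxaas3, Hoxb5os, Haglr, Hoxd3os1 and Gm53, among others. Several of them overlap the coding genes or their ends, and ATAC-seq does not tell the strands apart.

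**Figure D2:**
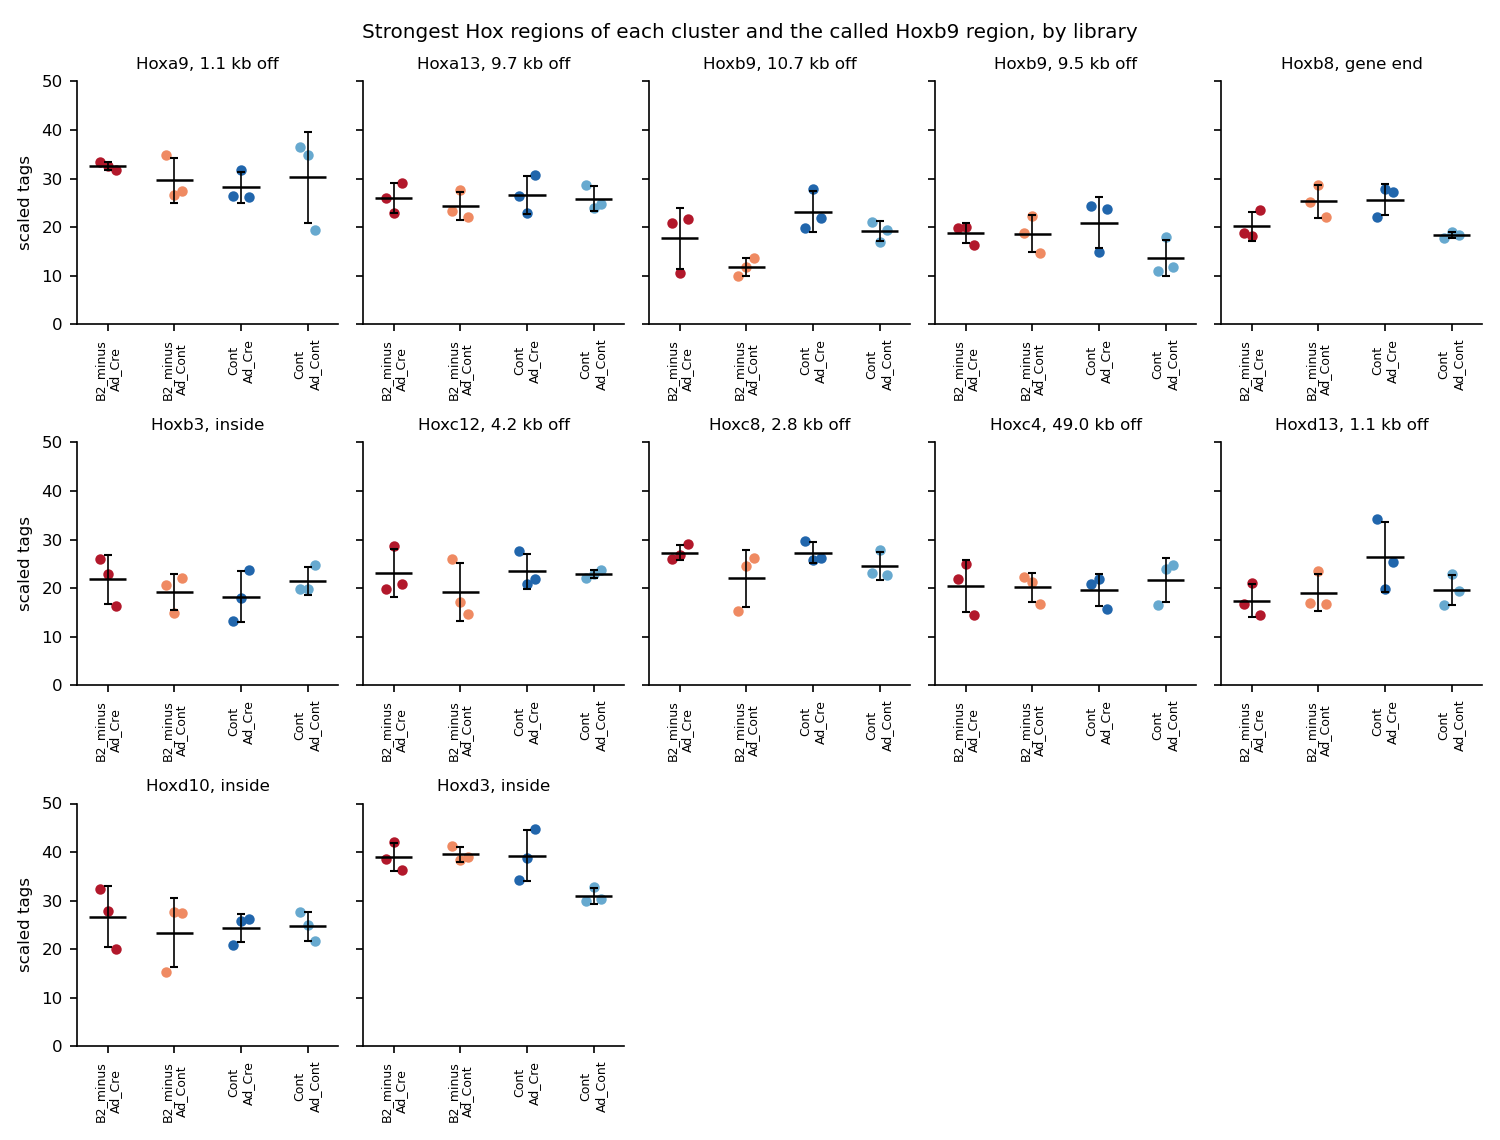
Scaled tags (y axis) in each library for the strongest regions of each cluster (2 in HoxA, 3 in each of the others) and for the Hoxb9 region that passed the test, titled by nearest gene and place. Points are libraries, the long bar is the group mean and the whiskers are its SD (n = 3); groups overlap in most panels, and the Hoxb9 region 10.7 kb off its gene is lowest in B2_minus_Ad_Cont.

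Vitamin B2 deficiency was compared with the control condition for the 45 open Hox regions, in a single model of all 4 groups fitted over the 101575 open regions of the genome. Averaged over Ad_Cre and Ad_Cont, 1 of the 45 passed an adjusted p of 0.05 (2.22%), with lower accessibility in B2_minus, against 5.78% of all tested regions, of which 3.33% were lower and 2.45% higher. An unadjusted p under 0.05 was found at 6 of the 45 and at 19.7% of all tested regions. With Ad_Cre alone 0 of 45 passed (1.13% of all tested regions did) and 3 had an unadjusted p under 0.05, as did 13.4% of all tested regions. With Ad_Cont alone 0 of 45 passed (1.04% of all tested regions did) and 4 had an unadjusted p under 0.05, as did 13.2% of all tested regions. The Hox share called is no higher than the background in any of the 3 comparisons.

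The single called region lay on the Hoxb13 side of Hoxb9, a gene of rib and forelimb patterning, 10684 bp from its body and 63722 bp from Hoxb13, at chr11:96260332-96260646 within the noncoding RNA gene Gm53. Its scaled tags were 20.9, 10.5 and 21.8 in B2_minus_Ad_Cre, 9.86, 11.7 and 13.7 in B2_minus_Ad_Cont, 19.8, 27.8 and 21.9 in Cont_Ad_Cre, and 21.0, 16.9 and 19.4 in Cont_Ad_Cont. The B2_minus_Ad_Cont libraries all lay below the Cont_Ad_Cont libraries, whereas with Ad_Cre the conditions overlapped and a single B2_minus library was low. Group means were 17.7 ± 6.24 in B2_minus_Ad_Cre, 11.8 ± 1.91 in B2_minus_Ad_Cont, 23.2 ± 4.15 in Cont_Ad_Cre and 19.1 ± 2.05 in Cont_Ad_Cont (SD, n = 3 each). The averaged log2 fold change was -0.55 (SE 0.169, edgeR adjusted p = 0.0333). By arm it was -0.39 with Ad_Cre (edgeR adjusted p = 0.437) and -0.70 with Ad_Cont (edgeR adjusted p = 0.178), and the 2 arms were not shown to differ (interaction 0.31, SE 0.339, edgeR adjusted p = 0.990).

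The call at Hoxb9 was lost when any 1 of 6 libraries was left out. The edgeR adjusted p was 0.151 without B2_minus_Ad_Cre 2, 0.110 without B2_minus_Ad_Cont 1, 0.0548 without B2_minus_Ad_Cont 2, 0.107 without Cont_Ad_Cre 2, 0.0814 without Cont_Ad_Cont 1 and 0.0651 without Cont_Ad_Cont 3, and DESeq2 gave an adjusted p of 0.787. The region 864 bp away, at chr11:96261511-96261868, had 19.8, 20.1 and 16.3 scaled tags in B2_minus_Ad_Cre, 18.8, 22.4 and 14.7 in B2_minus_Ad_Cont, 24.3, 14.9 and 23.7 in Cont_Ad_Cre, and 11.1, 17.9 and 11.9 in Cont_Ad_Cont. There the averaged log2 fold change was 0.13 (SE 0.166), so the neighbouring regions carried opposite signs, and the difference between them was not tested. Stellate cell marker regions moved with the same comparison. Their summed scaled tags over 33 tested regions were 759.9 to 819.8 in B2_minus_Ad_Cre, 773.9 to 809 in B2_minus_Ad_Cont, 847.1 to 923 in Cont_Ad_Cre and 848.6 to 867.5 in Cont_Ad_Cont. Of the 33, 3 were called lower (9.09%) and none higher, where 3.33% of all tested regions were called lower and 2.45% higher. These were 2 regions outside Col1a1, at 7095 and 20217 bp from it, and 1 inside Lrat. Of the 12 stellate genes, Lum had no open region. The sums of the cholangiocyte markers (80 regions, 7 called lower, or 8.75%, and none higher) were also lower in B2_minus within each arm, at 2220.6 to 2315 in B2_minus_Ad_Cre, 2307.9 to 2369.1 in B2_minus_Ad_Cont, 2320.1 to 2384.1 in Cont_Ad_Cre and 2380.3 to 2387.1 in Cont_Ad_Cont. Those of the hepatocyte markers (152 regions, 8 called higher and 3 lower, 7.24% in all) were higher in B2_minus, at 4295.8 to 4356.7 in B2_minus_Ad_Cre, 4256.6 to 4358.3 in B2_minus_Ad_Cont, 3996.2 to 4147.8 in Cont_Ad_Cre and 4198.1 to 4216.8 in Cont_Ad_Cont. The endothelial sums (65 regions, 4 called higher and 4 lower, 12.3% in all) overlapped between the conditions, at 1582.3 to 1603.4 in B2_minus_Ad_Cre, 1566 to 1595.8 in B2_minus_Ad_Cont, 1562.2 to 1603.3 in Cont_Ad_Cre and 1534.2 to 1601.7 in Cont_Ad_Cont. So did the Kupffer cell sums (19 regions, 1 called lower and none higher, 5.26% in all), at 533.2 to 564.3 in B2_minus_Ad_Cre, 539.4 to 558.6 in B2_minus_Ad_Cont, 530.9 to 589.7 in Cont_Ad_Cre and 517.6 to 563.6 in Cont_Ad_Cont. The part of other cells in the Hoxb9 value was not tested.

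Which Hox region was called depended on the method. The Hoxb9 region was the 1 called with limma (5.31% of all tested regions called), with RLE factors (5.74%), with a mean of at least 15 tags (6.33%), with merging at 50 bp of overlap (6.05%) and with a replicate block (5.75%). No Hox region was called with DESeq2 (0.0501% of all), with edgeR's variance bounded at Poisson (0.981%), with library sizes from listed tags (11.6%) or with peaks summed in a region (1.45%). With peaks of at least 12 tags, where the Hoxb9 region is no longer listed in all 12 libraries, 1 of 20 was called (5.76% of all), the Hoxd3 gene-end region described next. With regions listed in at least 3 libraries, 3 of 165 were called (1.65% of all), all in HoxB and none of them the Hoxb9 region. These 3 were listed in 0, 2 and 3 of the 6 B2_minus libraries and in 4, 6 and 6 of the 6 Cont libraries. Their missing B2_minus values were set to the lowest listed count. Those listed in 0 and 2 B2_minus libraries passed the filter only through Cont. The 3 calls are therefore not support for a difference.

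The other regions that came closest in each cluster had lower B2_minus values and did not pass. A region inside Hoxd3 at chr2:74738653-74739036 had 9.39, 13.4 and 9.07 scaled tags in B2_minus_Ad_Cre, 13.4, 6.40 and 12.6 in B2_minus_Ad_Cont, 17.6, 15.9 and 12.3 in Cont_Ad_Cre, and 14.4, 18.9 and 13 in Cont_Ad_Cont. With Ad_Cre and with Ad_Cont the conditions overlapped by 1 library each, and the averaged log2 fold change was -0.50 (SE 0.18, edgeR adjusted p = 0.0817). The region at the Hoxd3 gene end, chr2:74712043-74712427, was picked out after its values were seen. It had 15.6, 13.4 and 16.3 scaled tags in B2_minus_Ad_Cre, 16.1, 17.1 and 16.8 in B2_minus_Ad_Cont, 21.0, 19.9 and 22.8 in Cont_Ad_Cre, and 24.3, 18.9 and 20.5 in Cont_Ad_Cont. All 6 B2_minus libraries lay below all 6 Cont libraries, but the region did not pass the test, with a log2 fold change of -0.42 (SE 0.159, edgeR adjusted p = 0.103), and -0.43 with peaks of at least 12 tags (edgeR adjusted p = 0.0493). In HoxA a region inside the long Hoxa3 body at chr6:52211542-52211906 had 16.7, 22.0 and 19.0 in B2_minus_Ad_Cre, 21.5, 10.7 and 26.3 in B2_minus_Ad_Cont, 29.8, 19.9 and 18.4 in Cont_Ad_Cre, and 23.2, 24.9 and 33.5 in Cont_Ad_Cont. All groups overlapped in both arms, with a log2 fold change of -0.33 (SE 0.153, edgeR adjusted p = 0.198). In HoxC a weak region at Hoxc5, chr15:103014093-103014551, averaged 8.91 ± 2.38 in B2_minus_Ad_Cre, 8.69 ± 0.715 in B2_minus_Ad_Cont, 11.9 ± 1.23 in Cont_Ad_Cre and 10.5 ± 2.16 in Cont_Ad_Cont (SD, n = 3 each), with a log2 fold change of -0.33 (SE 0.18, edgeR adjusted p = 0.294).

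Across the 45 regions the log2 fold changes for vitamin B2 deficiency leaned below 0, and so did those of all tested regions under 15 scaled tags. The median was -0.08 for the Hox regions and 0.0049 for all tested regions, with 32 of the 45 below 0 (71.1%, against 48.9% of all). With library sizes taken from the listed tags in place of TMM, which moves the median of all tested regions to 0.10, the Hox median became 0.02 and 19 of 45 lay below 0. By level, all tested regions under 15 scaled tags had a median of -0.08, those of 15 to 25 tags 0.003 and those of 25 tags or more 0.03. The 21, 18 and 6 Hox regions in these bins had medians of -0.12, -0.05 and -0.05, each below that of all tested regions in the bin. The part of level in the Hox values was not tested. Signs were the same with Ad_Cre and Ad_Cont for 24 of the 45 (53.3%), against 62.3% of all tested regions. The medians carry no test.

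**Figure D3:**
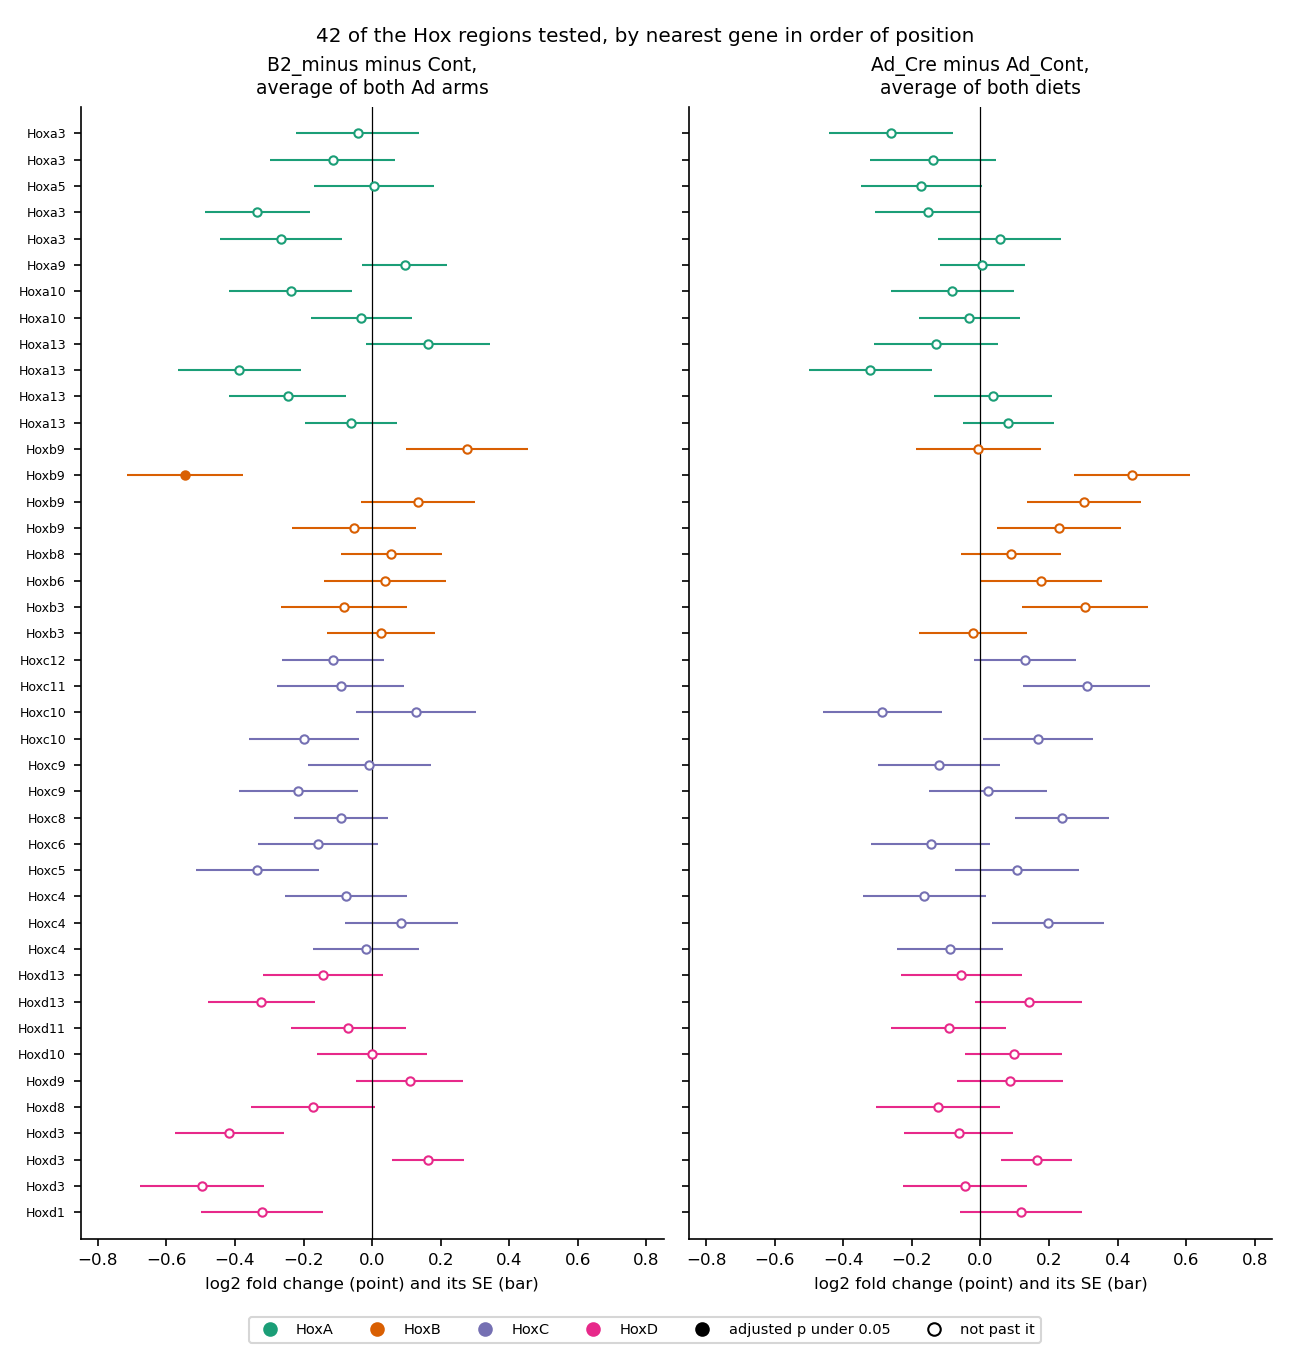
Log2 fold change (points) and its SE (bars) of 42 of the 45 tested Hox regions, listed by nearest gene in order of position, for B2_minus over Cont (left) and Ad_Cre over Ad_Cont (right). Colours mark the clusters and a filled point an adjusted p under 0.05; in the left panel 29 of 42 points lie below 0 and only a Hoxb9 region is filled, and in the right panel 20 of 42 lie below 0 and none is filled.

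Ad_Cre was compared with Ad_Cont over the same regions, and no Hox region passed. Averaged over both conditions 0 of 45 were called (0.0955% of all tested regions were), with 1 at an unadjusted p under 0.05 (9.87% of all) and a smallest edgeR adjusted p of 0.309. In B2_minus 0 of 45 were called (0.00197% of all) with 3 at an unadjusted p under 0.05 (7.29% of all), and in Cont 0 of 45 (0.00591% of all) with 5 (7.82% of all). The interaction called 0 of 45 (0% of all) with 3 at an unadjusted p under 0.05 (5.14% of all). The median log2 fold change of Ad_Cre over Ad_Cont was 0.0059, with 22 of 45 below 0 and a median of 0.0018 over all tested regions. By cluster the median was -0.11 over the 15 HoxA regions, 0.20 over the 8 HoxB regions, 0.06 over the 12 HoxC regions and 0.02 over the 10 HoxD regions, which carry no test. The smallest p belonged again to the Hoxb9 region with the vitamin B2 call, at 0.44 (SE 0.169, edgeR adjusted p = 0.309). The region over Hoxa13 at chr6:52259585-52260423 was the nearest to a call in HoxA, with 8.34, 7.66 and 9.07 scaled tags in B2_minus_Ad_Cre, 9.86, 12.8 and 8.42 in B2_minus_Ad_Cont, 8.82, 10.9 and 12.3 in Cont_Ad_Cre, and 13.3, 12.9 and 15.1 in Cont_Ad_Cont. Cont_Ad_Cre lay wholly below Cont_Ad_Cont, B2_minus_Ad_Cre overlapped B2_minus_Ad_Cont, and the averaged log2 fold change was -0.32 (SE 0.18, edgeR adjusted p = 0.566).

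Most Hox regions were listed in some libraries only. The libraries listed 138, 116 and 135 Hox regions in B2_minus_Ad_Cre, 99, 120 and 121 in B2_minus_Ad_Cont, 150, 171 and 174 in Cont_Ad_Cre, and 98, 153 and 132 in Cont_Ad_Cont. Cont_Ad_Cre was highest on average, overlapping Cont_Ad_Cont by 1 library, and it also listed the most peaks on average, 254160 to 281141, against 207948 to 235220 in B2_minus_Ad_Cre, 206940 to 225584 in B2_minus_Ad_Cont and 200698 to 265511 in Cont_Ad_Cont. Per 10000 listed regions of any kind the Hox number was 6.04 to 6.37 in B2_minus_Ad_Cre, 5.21 to 5.82 in B2_minus_Ad_Cont, 6.37 to 6.64 in Cont_Ad_Cre and 5.29 to 6.29 in Cont_Ad_Cont.

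HoxB had fewer listed regions in the B2_minus libraries than in most Cont libraries. It had 31, 25 and 24 listed regions in B2_minus_Ad_Cre, 19, 26 and 25 in B2_minus_Ad_Cont, 42, 48 and 54 in Cont_Ad_Cre, and 21, 46 and 34 in Cont_Ad_Cont. Per 10000 listed regions these were 1.43, 1.30 and 1.11 in B2_minus_Ad_Cre, 0.999, 1.26 and 1.20 in B2_minus_Ad_Cont, 1.78, 1.85 and 2.06 in Cont_Ad_Cre, and 1.13, 1.87 and 1.62 in Cont_Ad_Cont. The conditions did not overlap with Ad_Cre, and with Ad_Cont they overlapped through a single Cont_Ad_Cont library, the one with the fewest peaks of the 12. On the same scale HoxA, HoxC and HoxD overlapped between the conditions in both arms. These counts are descriptions of sites near the lowest listed count, and the part of library depth in them was not tested.

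**Figure D4:**
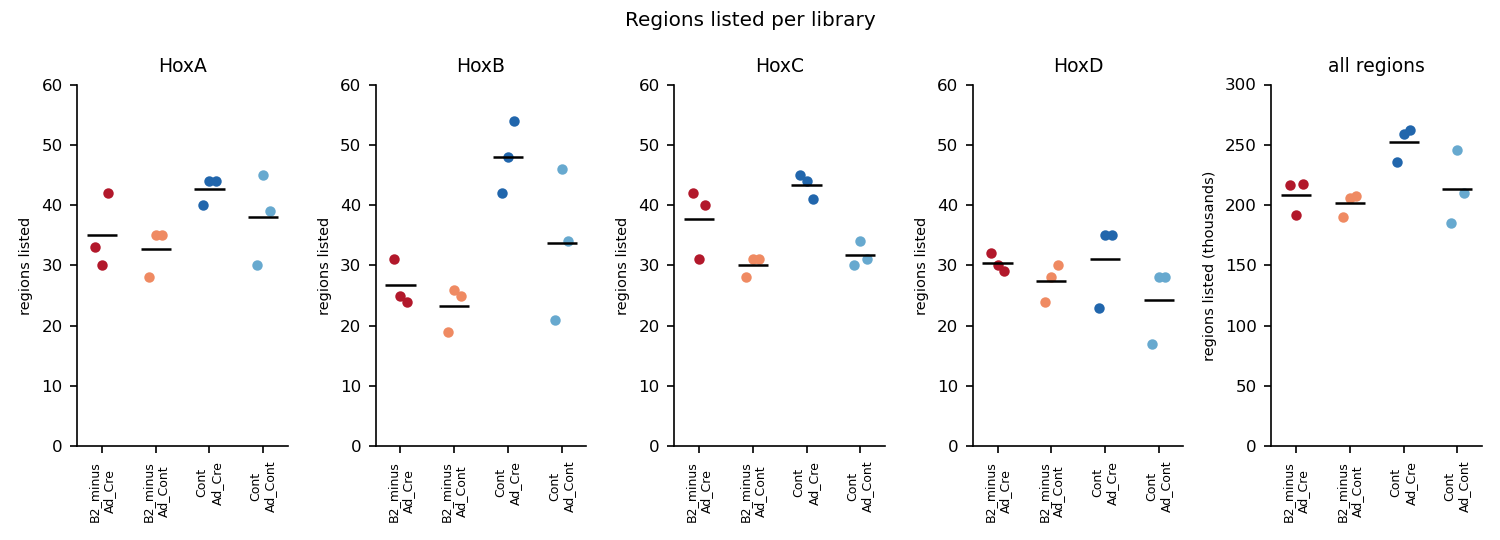
Number of regions listed per library in each Hox cluster (first 4 panels) and over the whole genome (last panel), by group. Points are libraries and bars are group means; HoxB shows 19 to 31 regions in the B2_minus libraries and 21 to 54 in the Cont libraries, and Cont_Ad_Cre has the highest mean over the genome.

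A stricter view takes regions listed in all 3 libraries of one group and in none of another. Between the conditions with Ad_Cre, 3 Hox regions were in every B2_minus_Ad_Cre and no Cont_Ad_Cre list (0.642% of 467, against 0.222% of all regions) and 2 the other way round (0.428%, against 0.469%). With Ad_Cont, 1 was in every B2_minus_Ad_Cont and no Cont_Ad_Cont list (0.214%, against 0.334%) and 4 the other way round (0.857%, against 0.256%). Between the Ad arms of B2_minus, 4 were in every Ad_Cre and no Ad_Cont list (0.857%, against 0.233%) and 0 the other way round (0%, against 0.203%). In Cont, 1 was in every Ad_Cre and no Ad_Cont list (0.214%, against 0.451%) and 1 the other way round (0.214%, against 0.158%). These shares rest on 0 to 4 regions each and carry no test.

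These 16 listings came from 12 regions, all of them weak. Both regions listed in Cont_Ad_Cre and not in B2_minus_Ad_Cre belonged to HoxB. One at the end of Hoxb13, a posterior gene known in the prostate and tail, had 9, 8 and 10 tags in Cont_Ad_Cre and 8 in 1 Cont_Ad_Cont library and was listed in no B2_minus library. The other, 40047 bp from Hoxb1, a hindbrain gene, had 8, 10 and 8 tags in Cont_Ad_Cre and 7 and 10 in 2 Cont_Ad_Cont libraries and was likewise listed in no B2_minus library. In the other direction a region 30852 bp beyond Hoxc4 was listed in the 3 B2_minus_Ad_Cre libraries, with 8, 12 and 7 tags, and in no other library. A region 2040 bp from Hoxd9 was listed in all 9 libraries outside Cont_Ad_Cre, with 6 to 14 tags. The other 8, at Hoxc13, Hoxc11, Hoxc9, Hoxc4, Hoxd13, Hoxd12, Hoxd4 and Hoxa13, held 6 to 12 tags wherever they were listed. Counts this close to the lowest listed 6 to 8 tags can cross that limit in either direction, so absence from a list is not detectable absence of open chromatin.

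At the promoter windows, 16 of the 24 Hox windows overlapped a region of at least 1 library and 9 overlapped an open region (37.5%), against 56.5% of all 21044 RefSeq promoter windows. The open ones belonged to Hoxa3, Hoxa5, Hoxa10 and Hoxa13 in HoxA and to Hoxd1, Hoxd9, Hoxd10, Hoxd11 and Hoxd13 in HoxD. None of the 4 windows of HoxB and HoxC genes in the table, at Hoxb1, Hoxb4, Hoxb8 and Hoxc4, was open. At the open windows the region had 12.3 to 24.8 scaled tags with a median of 16.1, against a median of 61.2 over all open promoters, so the highest Hox promoter lay far under the usual one. Other homeobox genes chosen for low use in liver had 8 of 26 windows open (30.8%), and hepatocyte markers 13 of 14 (92.9%).

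CpG content, which separates most open from closed promoters in the genome, did so only in part for Hox. The Hox windows held 4 to 45 CpG with a median of 14.5, against a median of 13 over all windows. Of the 17 with 10 or more CpG, 9 were open (52.9%), against 84.7% of the 12059 such windows of all genes. Of the 7 with fewer, 0 were open, against 18.7% of 8985. The Hoxa13 window printed above, with 45 CpG, was open at 17.5 scaled tags, and the Hoxd10 window with 22 CpG was open at 24.8. The 2 Hoxd11 windows followed the CpG number, with 25 in the open and 4 in the closed one, whereas at Hoxa10 the open window held 12 and the closed one 21. Hoxd3 with 20 CpG and Hoxb8 with 13 had no peak in their windows in any library, and neither had Hoxd4 and Hoxa9 with 4 each. At Hoxd3 this rests on the edge of the window. The open region at the Hoxd3 gene end, chr2:74712043-74712427, with 18.6 scaled tags, starts at the very next base. The core of the AhR binding element, GCGTG on either strand, was in 9 of the 24 Hox windows (37.5%) and in 38.8% of all windows. A match is only a run of letters and does not show binding.

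**Figure D5:**
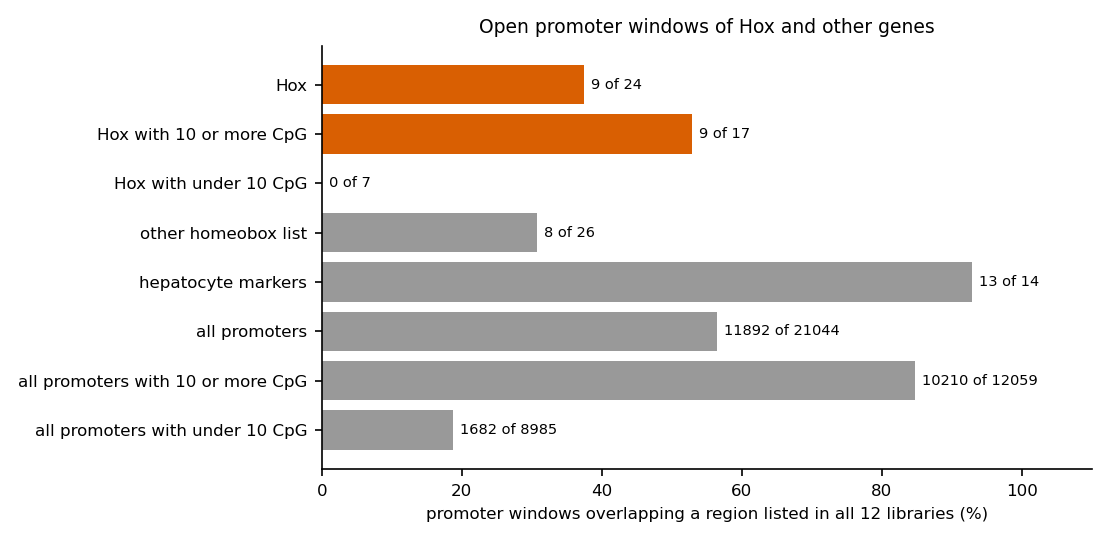
Share of RefSeq promoter windows that overlap a region listed in all 12 libraries (x axis, %), for Hox genes (orange) and other sets (grey), also split at 10 CpG per window. The numbers beside the bars are open windows of all windows; the Hox bar stands at 37.5% and the bar of all promoters at 56.5%.

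The strongest regions of the genes that act on or with Hox genes, or flank the clusters, were higher than those of the Hox genes. The median over genes of the highest region was 74.8 scaled tags for the 9 cofactor genes of the PBX, MEIS and PREP families, 70.0 for 22 Polycomb subunits, 65.5 for 12 Trithorax and MLL genes and 66.7 for genes flanking the clusters, against 12.6, 8.74, 15.2 and 16.1 for the HoxA, HoxB, HoxC and HoxD genes. A gene's highest region tends to rise with its number of regions. The 9 cofactor genes held 504 regions, and the 39 Hox genes held 467. Over all open regions of a list the medians lay closer, at 18.33 for the cofactors, 24.52 for Polycomb, 24.97 for Trithorax and MLL and 23.75 for flanking genes. For HoxA, HoxB, HoxC and HoxD they were 17.54, 16.46, 15.17 and 17.35. Other homeobox genes chosen for low use in liver had a median of 17.23 over their open regions, near the Hox values. The median of their highest regions was 35.67, with 843 regions at 24 genes. The cofactor, Polycomb, Trithorax and MLL, and flanking lists had an open region at every gene found in the gene table. Few of their regions changed with vitamin B2 deficiency averaged over both arms, where 5.78% of all tested regions were called.

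Among the cofactors, which bind DNA together with Hox proteins, 1 of 82 tested regions rose and 2 fell. A Pbx4 region averaged 107.4 ± 6.84 scaled tags in B2_minus_Ad_Cre, 106.1 ± 9.68 in B2_minus_Ad_Cont, 91.2 ± 5.78 in Cont_Ad_Cre and 95.5 ± 8.80 in Cont_Ad_Cont (SD, n = 3 each), with an averaged log2 fold change of 0.19 (edgeR adjusted p = 0.0204). One of the regions that fell was at the gene end of Pknox1, with a log2 fold change of -0.19 (edgeR adjusted p = 0.0193).

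Among the Polycomb subunits, which keep Hox genes silent, 2 of 146 regions rose and 5 fell. Cbx7, which encodes a reader of the Polycomb histone mark, held 4 of these 7. Its strongest region, chr15:79950702-79951031, averaged 61.2 ± 4.53 scaled tags in B2_minus_Ad_Cre, 55.0 ± 4.21 in B2_minus_Ad_Cont, 78.9 ± 4.14 in Cont_Ad_Cre and 79.1 ± 5.85 in Cont_Ad_Cont (SD, n = 3 each), a log2 fold change of -0.45 (edgeR adjusted p = 2.7e-06). The other 2 Cbx7 regions that fell gave -0.39 and -0.34, and another, chr15:79931779-79932101, rose by 0.61 (edgeR adjusted p = 0.0044), so the gene moved both ways. Mtf2 rose by 0.43, and Aebp2 and Phc2 had 1 region each that fell, by 0.47 and 0.35 on the log2 scale. With Ad_Cont alone 0 of 146 rose and 3 fell, where 1.04% of all tested regions were called. With Ad_Cre alone 1 rose and 1 fell, where 1.13% were. That rise was at another Phc2 region, by 0.77 (edgeR adjusted p = 0.0099), where Cont_Ad_Cre averaged 22.9 ± 14.6 scaled tags (SD, n = 3).

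Among the Trithorax and MLL genes, which keep active Hox genes on, 0 of 70 regions rose and 3 fell averaged over both arms. They were 2 regions of Kdm6b, the demethylase that removes the Polycomb mark, with log2 fold changes of -0.29 and -0.28, and 1 of Kmt2d with -0.55. Of 112 regions at genes flanking the clusters, 1 rose and 1 fell, and both belonged to Hibadh, with 0.52 and -0.61. In the retinoic acid pathway, whose receptors switch on anterior Hox genes in the embryo, 6 of 183 regions rose and 2 fell. Those that rose were at or near Rarb, Aldh1a1 and Rxra, the Rxra region 49500 bp from the gene. Those that fell were 5805 bp from Cyp26b1 and inside Aldh1a3. Among other homeobox genes outside the clusters, 3 of 123 rose, all near Msx1, and 4 fell, 2 near Pax7 and 1 each near Gsx2 and Cdx2. The list shares called range from 1.79% to 5.69%, none above the 5.78% of all tested regions. All these calls are for the average of both arms. With Ad_Cre alone 1 of the 70 Trithorax and MLL regions rose, at Ash2l (log2 fold change 0.37, edgeR adjusted p = 0.0488). In that arm 2 fell, at Kdm6b and 11211 bp from Kmt2a, where 1.13% of all tested regions were called. With Ad_Cont alone 0 rose and 1 fell, at Kdm6b, where 1.04% of all were called.

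For Ad_Cre over Ad_Cont the same 6 lists gave a single called region averaged over both conditions, near Gsx2, with a log2 fold change of 0.57 (SE 0.116, edgeR adjusted p = 0.0115). It averaged 32.4 ± 2.82 scaled tags in B2_minus_Ad_Cre, 23.0 ± 3.87 in B2_minus_Ad_Cont, 46.5 ± 3.94 in Cont_Ad_Cre and 29.7 ± 3.97 in Cont_Ad_Cont (SD, n = 3 each), higher with Ad_Cre under both conditions. No region of the cofactor, Polycomb, Trithorax, flanking or retinoic acid lists passed that test.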

How the data were processed

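ATAC-seq peak lists of 12 hepatocyte libraries were used, and the 8 HepG2 libraries of the series were not analysed here. The authors deposited a list of peaks for each library, with a tag count for every peak, a unit judged from its values. Bowtie2, HOMER and the build mm10 are listed in the submitters' processing notes, with no roles or versions. Peaks overlapping by 1 bp or more were merged over the 12 lists, after leaving out 4298 of 2845066 peaks (0.151%) that lay outside the autosomes and X. Each region was tied to the nearest protein-coding gene body of RefSeq (GRCm38.p6, which is mm10) within 50 kb, and 25 of the 467 Hox regions were tied to several overlapping Hox genes and counted under the shortest. Open regions were fitted with edgeR 4.0.16 (quasi-likelihood test with glmQLFit, legacy=FALSE, TMM scaling, 4 groups in a single model), with Benjamini-Hochberg adjustment over all 101575 regions and a threshold of 0.05. The legacy=FALSE setting does not bound the variance at Poisson. It was chosen because replicates of these lists varied less than Poisson in earlier results. Each edgeR SE is the size of the log2 fold change divided by the square root of its F statistic, which is unreliable for fold changes very close to 0. Tags without molecular identifiers are not independent molecules.

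Regions were named by rule: the 3 strongest of each cluster, every called one, the one with the smallest p in each cluster for either averaged contrast, and those listed in all libraries of a group and none of its comparison group, which are mostly summarised. The members and gene lists were chosen with earlier results of these data known. None of the 66 library pairs held identical values. Alternatives were DESeq2 1.42.0, limma 3.58.1, other scalings, filters, region values, merging and distance rules, a replicate block and leaving out each library. Results at some genes are not reported here and are left out of the figures, though counts over all regions include them.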

Additional observations from a re-analysis of the deposited data

How the results depend on the processing

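The count of Hox regions called for B2_minus over Cont, averaged over Ad_Cre and Ad_Cont, was 1, the Hoxb9 region. It became 0 with DESeq2, 0 with edgeR's variance bounded at Poisson, 0 with library sizes from listed tags, 0 with summed peaks and 0 with a distance limit of 10 kb, which leaves the Hoxb9 region out by construction. The Hoxb9 log2 fold change was negative in every setting that tested the region, with an edgeR adjusted p of 0.193 with the bounded variance, 0.0653 with listed tags and 0.144 with summed peaks. With regions listed in at least 3 libraries the count was 3, at or near Hoxb13, Hoxb2 and Hoxb1, but these were listed in only 0, 2 and 3 of the 6 B2_minus libraries and the missing values were set to the lowest listed count, so their fold changes are not given. The Hoxb9 region then had -0.43 (edgeR adjusted p = 0.182). Leaving out each library in turn gave 0 to 1 called, with -0.64 to -0.42 at Hoxb9. Peaks of at least 12 tags left 92 merged and 20 open Hox regions by construction; the count stayed 1, but for a Hoxd3 region in place of Hoxb9. The Hox median for B2_minus over Cont became 0.020 with listed tags, and that for Ad_Cre over Ad_Cont 0.083 with a mean of at least 15 tags, which leaves 25 regions. Correlations over regions were -0.0161 to 0.0123 in 18 library pairs with the same replicate number and -0.0133 to 0.0142 in 36 with different numbers. Between Ad_Cre and Ad_Cont, same-number pairs gave 0.0080 to 0.0122 in Cont and 0.0013 to 0.0085 in B2_minus. Different numbers gave -0.0133 to 0.0039 in Cont and -0.0082 to 0.0023 in B2_minus. Correlations this small cannot settle whether a number marks a shared origin. A replicate block left the count at 1 (Hoxb9 edgeR adjusted p = 0.0345). Except where construction is named, the cause was not tested. DESeq2 gave no adjusted p at the named Hoxc5 and weak Hoxa13 regions. Depth limits the rest, since a site under 6 to 8 tags is missing from a list.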
